A study of Homo sapiens with 20 samples.

Results

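FOXO transcription factors switch on genes that hold back growth, the cell cycle and anabolic signalling. When insulin or growth factor receptors activate PI3K and then AKT, AKT phosphorylates the FOXO proteins, which are bound by 14-3-3 proteins and kept out of the nucleus. Several of the genes they act on feed back on the same route, at the level of PI3K, of the insulin receptor substrates or of mTORC1. Keratinocytes, the main cells of the epidermis, use receptor and PI3K signalling when they migrate to close a wound. The genes described here are 10 genes linked to FOXO by earlier work on other cells: the factors FOXO1 and FOXO3 themselves, PIK3IP1, IRS2, SESN1, SESN3, TXNIP, CCNG2, BCL6 and FBXO32. They were found by symbol, 1 Ensembl identifier each, among the 57500 genes of the count tables. FBXO32 is the gene the group was built around, because its level had been seen to be lower after wounding in wild-type cells and not in cells without GCN2, so its wounding response and everything measured in the same libraries are given as a description with no test. The group was thus chosen by the measured FBXO32 level after wounding, and the other 9 were tested to see whether they moved with it.

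NTERT cells, an immortalized human keratinocyte line, were either wild type (WT) or an edited pool in which CRISPR/Cas9 had disrupted EIF2AK4, the gene for the kinase GCN2 (GCN2KO). The pool is not a single clone, and the sources used here do not say which of the study's guide RNAs made the cells that were sequenced. GCN2 senses uncharged tRNA and phosphorylates eIF2α. Each genotype was left unwounded or given high-density wounding (HDW), in which pipette tips were drawn across the monolayer in perpendicular directions, and total RNA was sequenced 6 h later by the study's methods. The labels name a low-calcium growth medium, whereas the methods describe differentiation with calcium and serum before wounding. Each of the 4 groups held 5 libraries, 20 in all, with 14083504 to 34611570 reads counted in genes. The libraries of WT unwounded cells were shallower, at 14083504 to 30505904 reads, than those of WT HDW cells, at 29320528 to 34611570. The study describes the 5 libraries of a group as replicates of plated cells of the same line, and its n as biological replicates. The labels do not tie a library to a culture, so p-values measure the spread between these samples.

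The targeted gene separated the genotypes. EIF2AK4 stood at 4152 to 4555 normalized read counts in WT unwounded libraries and 3980.2 to 4303 after HDW, against 806 to 962 and 809.8 to 951 in the GCN2KO libraries. Normalized read counts are counts scaled to the mean effective library size of the 20 libraries. All 12 keratinocyte markers examined were detected in each group, with sums of 464250.0 to 618740.0 normalized read counts per library, against 886 to 1151 for 16 markers of other skin and blood cell types, of which 2 or 3 were at 0 in each group. The keratinocyte markers themselves differed between genotypes. In unwounded cells 8 of the 12 were lower and 2 higher in GCN2KO (33.1% and 33.4% of all genes). After HDW 7 were lower and 3 higher (35.8% and 35.9%). IVL, a marker of differentiating keratinocytes, was higher in GCN2KO cells by 1.83 on the log2 scale unwounded and 1.96 after HDW. Of the basal markers, COL17A1 (−1.36 and −1.25), ITGB4 (−0.95 and −0.90) and KRT14 (−0.85 and −0.77) were lower. So were ITGA6 (−0.73 and −0.56) and TP63 (−0.52 and −0.43), whereas KRT5 was higher (0.50 and 0.52). KRT1, another marker of differentiating keratinocytes, was lower (−1.06 and −0.83), at no more than 32.9 normalized read counts. KRT10, a further marker of differentiating keratinocytes, was higher after HDW (0.28), with no call unwounded. The basal markers named, other than KRT5, were thus lower, whereas the differentiation markers moved in both directions. Over all genes the unwounded GCN2KO libraries differed among themselves, and 1 GCN2KO HDW library stood apart from its group. Among unwounded GCN2KO libraries, replicates 2 and 4 resembled each other, as did replicates 3 and 5 (chi-square per degree of freedom of 6.76 to 8.44 within these pairs), while the other 8 pairings gave 19.2 to 49.4. Among GCN2KO HDW libraries, the pairings with replicate 5 gave 16.0 to 40.8 and the others 2.48 to 6.98. For WT HDW the pairings with replicate 2 gave 5.83 to 21.8 and the others 2.44 to 8.30, and for WT unwounded all 10 pairings gave 2.41 to 11.8. Where a call for a member changed without GCN2KO libraries that differed in this way, the value without them stands beside it.

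Start-site sequence was read for the 9 members that have an entry in the RefSeq promoter set of GRCh38.p14, which has windows of 300 bases, 250 before and 50 after a transcription start. FBXO32 is not among them. The windows were searched on both strands for GTAAACA, the core of the FOXO and forkhead binding motif, for CAAAACA, a looser forkhead form, and for CACGTG, the E-box that MYC family proteins bind. The search stopped at the first match of each motif on each strand of a window. The matches found in the 17 windows of these 9 genes are shown, so that the letters can be seen beside the values. Each is given as 30 bases in the direction of transcription with the motif in capitals.
TXNIP: gtcgggctcctgGTAAACAaggaccgggca
PIK3IP1: ctaaagagaggcTGTTTACcagaacagcat
IRS2: cgagtcacatgtTGTTTTGctcttcttagt
CCNG2: tccgcggggagtCACGTGccccgccccctt
The TXNIP match lies at chr1:145996686-145996715 on the minus strand, with its GTAAACA 124 bases before the start. The PIK3IP1 match, at chr22:31292455-31292484 on the minus strand, is the reverse complement of GTAAACA and begins 16 bases after one of the gene's starts. In IRS2 the reverse complement of CAAAACA begins 40 bases before the start (chr13:109786606-109786635, minus strand), and in CCNG2 the E-box begins 30 bases before it (chr4:77157165-77157194, plus strand). Among all 35116 windows, 3.42% held GTAAACA, 4.92% CAAAACA and 7.26% CACGTG. These are matches of letters in short windows and not measured binding, and no match in the other windows says nothing about FOXO at those genes.

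FBXO32, on chromosome 8, encodes atrogin-1, the F-box protein that brings substrates to an SCF ubiquitin ligase, best known from muscle wasting. Its normalized read counts were 5262, 4648, 5211, 4643 and 4842.5 in the 5 unwounded WT libraries and 1710.5, 1741, 1703, 1514 and 1648 after HDW. In GCN2KO cells they were 1219, 1489.9, 1421, 1477 and 1212 unwounded, and 1358, 1095, 1235, 1272 and 1105 after HDW. The unwounded WT libraries were thus high on their own, and the other 3 groups lay close together: every unwounded GCN2KO library was below every WT HDW library, without any wound. HDW went with a log2 fold change of −1.57 (SE 0.05) in WT and −0.16 (SE 0.08) in GCN2KO cells, a difference of 1.40 (SE 0.10) between the genotypes. Loss of GCN2 went with −1.85 (SE 0.08) in unwounded cells and −0.46 (SE 0.06) after HDW. These comparisons share the unwounded WT libraries, so they are not separate evidence. In bulk RNA, less RNA per cell and fewer cells that hold it cannot be told apart.

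**Figure D1:**
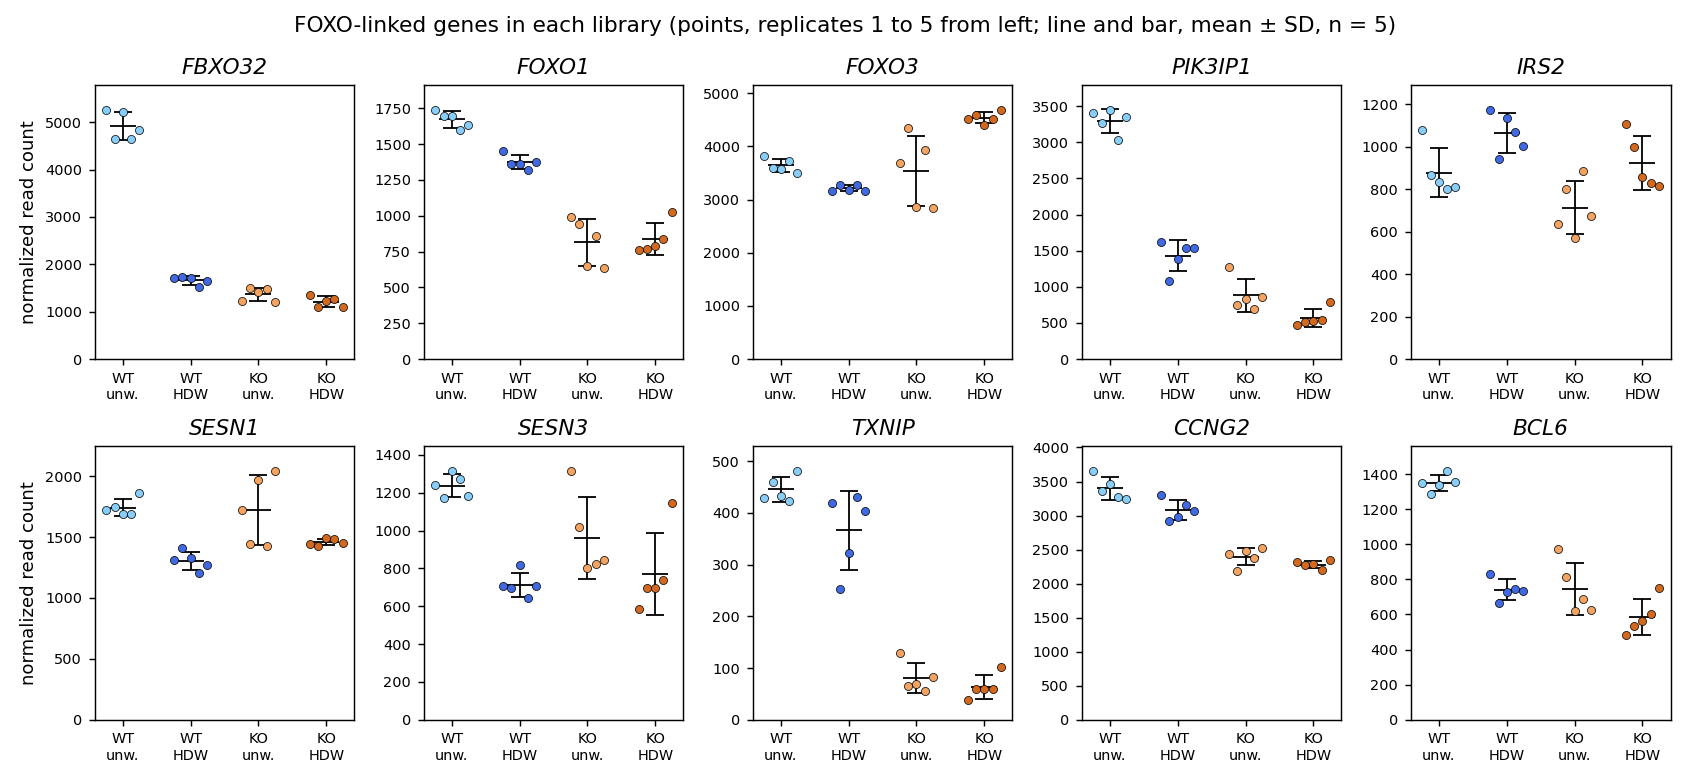
Normalized read counts (vertical axis, linear, from 0) of the 10 genes in each of the 20 libraries; within a group the points are replicates 1 to 5 from left to right, and the line and bar are the mean and SD (n = 5). FBXO32, PIK3IP1 and BCL6 are high in unwounded WT cells and lower in the other 3 groups, TXNIP is low in both GCN2KO groups, and FOXO3 is highest after HDW in GCN2KO cells.

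The other 9 genes moved in one direction in wounded WT cells, with 1 exception. After HDW in WT cells 8 of the 9 fell and 1, IRS2, rose (edgeR's quasi-likelihood test, adjusted p of 0.05 or less over all genes tested), where 25.2% of all genes fell and 26.1% rose. Their median log2 fold change was −0.29, against −0.0024 for all genes tested. One of them, PIK3IP1, also passed a log2 fold change of 1, as 1.55% of all genes did downwards. In 6 of the 9 (SESN1, SESN3, PIK3IP1, BCL6, FOXO1 and FOXO3) every HDW library lay below every unwounded library, as in 17.7% of all genes. In GCN2KO cells 1 of the 9 fell after HDW (PIK3IP1), 2 rose (IRS2 and FOXO3) and 6 did not pass, against 10.8% of all genes falling and 11.9% rising. These 3 calls rest on single libraries: from 0 to 5 of the 9 passed as 1 library at a time was left out, with the libraries named at each gene below. The difference between the genotypes' responses passed for 3 of the 9, FOXO3, BCL6 and PIK3IP1, all towards a smaller fall or a rise in GCN2KO cells, where 11.2% of all genes differed in that direction. The other 6 did not pass, which does not show that they responded alike in both genotypes.

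**Figure D2:**
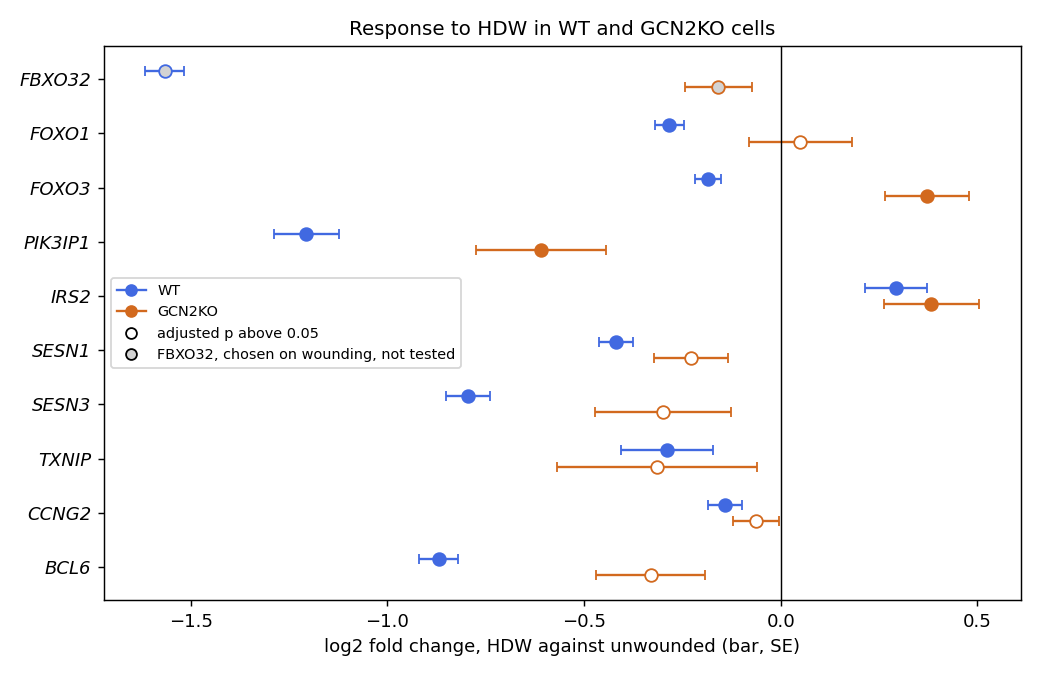
Log2 fold change after HDW against unwounded cells (horizontal axis; bars are SE) for each gene in WT (blue) and GCN2KO (orange) cells, 5 libraries per group; open points did not pass an adjusted p of 0.05, and the grey points of FBXO32 were not tested. In WT cells every gene but IRS2 lies left of 0, FBXO32 farthest at −1.57, while the GCN2KO points lie closer to 0 for FBXO32, PIK3IP1, BCL6 and SESN3 and to the right of it for FOXO3.

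FOXO1 (chr13:40555667-40666641, minus strand, GRCh38 with GENCODE gene models, as for the other genes) and FOXO3 (chr6:108559835-108684774, plus strand) are the forkhead factors themselves, which share a DNA-binding domain and many targets. FOXO1 stood at 1739, 1699, 1696, 1596 and 1631 normalized read counts in unwounded WT cells and at 1451, 1358, 1364, 1319 and 1374 after HDW. In GCN2KO cells it was 991, 944, 648, 856 and 637 unwounded, and 761, 768, 790.1, 834 and 1027 after HDW. Both GCN2KO groups lay wholly below both WT groups. FOXO1 fell by 0.28 on the log2 scale after HDW in WT cells (SE 0.04, adjusted p = 1.12e-05). In GCN2KO cells its log2 fold change was 0.05 (SE 0.13, adjusted p = 0.812), and the difference in response, 0.32 (SE 0.14), did not pass (adjusted p = 0.0952). FOXO1 passed for that difference without GCN2KO unwounded replicate 1 (0.40, adjusted p = 0.0278), without replicate 2 (0.38, adjusted p = 0.0436) and without 2 and 4 together (0.43, adjusted p = 0.0275). It was lower in GCN2KO than WT cells by a log2 fold change of −1.04 unwounded (SE 0.11, adjusted p = 5.19e-07) and −0.72 after HDW (SE 0.07, adjusted p = 7.47e-07). Of its annotated exonic bases 22.7% are shared with another gene model on the same strand that is not in the count tables, and how reads there were counted is not given in the sources used here.

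FOXO3 went the other way in GCN2KO cells. It stood at 3814, 3587, 3581, 3728 and 3502 normalized read counts in unwounded WT cells and 3169.7, 3267, 3178, 3274 and 3157 after HDW, a fall of small size that nonetheless separated the groups (log2 fold change −0.18, SE 0.03, adjusted p = 2.66e-04). That call was lost in the joint fit of all 20 libraries (adjusted p = 0.082). In GCN2KO cells the 5 unwounded libraries spread widely, at 3689, 4346, 2867, 3923 and 2849, and the HDW libraries were close together at 4519, 4593, 4393, 4521 and 4687. All 5 HDW libraries lay above all 5 unwounded ones, as in 7.52% of all genes, and the rise was 0.37 (SE 0.11, adjusted p = 0.0242). The 2 low unwounded libraries, replicates 3 and 5, are a pair that resembled each other over all genes. Without them the FOXO3 value was 0.20 (adjusted p = 0.0605), and without the pair 2 and 4 the rise was 0.54 (adjusted p = 5.30e-04). The call was also lost without unwounded replicate 3 alone (0.30, adjusted p = 0.0534), unwounded replicate 5 alone (0.30, adjusted p = 0.0589) or HDW replicate 2 (0.37, adjusted p = 0.0546), and without unwounded replicate 1 and HDW replicate 5 together (0.38, adjusted p = 0.0543). The difference between the responses of the genotypes was 0.55 (SE 0.11, adjusted p = 0.0012), and it stayed past the threshold when any 1 library was left out, with adjusted p-values of 6.23e-05 to 0.00306. FOXO3 did not pass between unwounded GCN2KO and WT cells (log2 fold change −0.04, SE 0.10, adjusted p = 0.749), except at −0.21 without GCN2KO unwounded replicates 2 and 4 (adjusted p = 0.0349), and after HDW was higher in GCN2KO cells by 0.50 (SE 0.03, adjusted p = 1.56e-08).

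PIK3IP1 (chr22:31281594-31292534, minus strand) encodes a transmembrane protein that binds the PI3K catalytic subunit and restrains it. Its normalized read counts were 3406, 3274, 3450.2, 3029.7 and 3345 in unwounded WT cells and 1616, 1081, 1389, 1542 and 1538 after HDW. In GCN2KO cells they were 1276, 743, 828, 698 and 856 unwounded, and 474, 514.5, 533, 545 and 794 after HDW. The order was that of FBXO32, with unwounded WT libraries far above the rest, but unlike FBXO32 a further step down followed in wounded GCN2KO cells. PIK3IP1 fell by 1.21 on the log2 scale after HDW in WT cells (SE 0.08, adjusted p = 1.42e-08). In GCN2KO cells it fell by 0.61 (SE 0.165, adjusted p = 0.0189), and that call was lost without GCN2KO HDW replicate 2 or 3, with adjusted p of up to 0.0517, and without GCN2KO unwounded replicates 3 and 5 (adjusted p = 0.0615). The responses differed by 0.58 (SE 0.20, adjusted p = 0.0322), a call that did not hold in 6 of the 20 fits that left out 1 library: WT unwounded replicate 1 or 3, WT HDW replicate 2 or 3, GCN2KO unwounded replicate 4 or GCN2KO HDW replicate 5 (adjusted p of up to 0.075). Nor did it hold for PIK3IP1 without GCN2KO unwounded replicates 2 and 4 (0.42, adjusted p = 0.104) or 3 and 5 (0.52, adjusted p = 0.102). Against WT, GCN2KO cells were lower by −1.90 unwounded (SE 0.13, adjusted p = 2.42e-09) and −1.32 after HDW (SE 0.13, adjusted p = 7.32e-07).

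IRS2 (chr13:109752695-109786583, minus strand), an insulin receptor substrate that couples the receptor to PI3K, was the exception in WT cells. Unwounded WT libraries ranged from 799.0 to 1077 normalized read counts and WT HDW libraries from 944 to 1174. The ranges overlapped because of 1 unwounded library, replicate 1. IRS2 rose after HDW by 0.29 on the log2 scale in WT (SE 0.08, adjusted p = 0.00555). In GCN2KO cells it ranged from 572 to 883 unwounded and from 816 to 1108 after HDW, a rise of 0.38 (SE 0.12, adjusted p = 0.0349), and the responses differed by 0.09 (SE 0.15, adjusted p = 0.726). The rise in GCN2KO cells did not pass when GCN2KO unwounded replicate 1, 3 or 5 or GCN2KO HDW replicate 1, 2 or 3 was left out (adjusted p of up to 0.0907), nor without unwounded replicates 3 and 5 together (0.26, adjusted p = 0.195) or unwounded replicate 1 with HDW replicate 5 (0.39, adjusted p = 0.0601).

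SESN1 (chr6:108984309-109094846) and SESN3 (chr11:95165513-95232541), both on the minus strand, encode sestrins, stress-induced proteins that restrain mTORC1, the kinase complex that drives protein synthesis. SESN3 stood at 1242, 1174, 1318, 1275 and 1181 normalized read counts in unwounded WT cells and 709, 696.5, 817, 645 and 705 after HDW. In GCN2KO cells it was 1314, 1019, 799.9, 821 and 845 unwounded, and 584, 697, 695, 741 and 1147 after HDW. The WT groups were well apart, while each GCN2KO group had 1 library far above the rest, replicate 1 unwounded and replicate 5 after HDW. SESN3 fell by 0.79 in WT cells (SE 0.06, adjusted p = 2.04e-08). In GCN2KO cells the log2 fold change was −0.30 (SE 0.17, adjusted p = 0.219), and it passed at −0.49 without HDW replicate 5 (adjusted p = 0.0217). The difference in response was 0.48 (SE 0.195, adjusted p = 0.0747), and it passed at 0.43 (adjusted p = 0.00609) without both of those libraries, as did the fall in GCN2KO cells (−0.35, adjusted p = 0.0302). The difference also passed without GCN2KO unwounded replicate 1 alone or GCN2KO HDW replicate 1 alone (adjusted p down to 0.0113).

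SESN1 ranged from 1688 to 1862 normalized read counts in unwounded WT cells and from 1205 to 1407 after HDW, a fall of 0.42 on the log2 scale (SE 0.04, adjusted p = 1.06e-06). In GCN2KO cells unwounded libraries read 1724, 1442, 1965, 1425 and 2046, and HDW libraries lay within 1425.5 to 1492. Replicates 2 and 4 were thus at the level of wounded cells and replicates 3 and 5 above it. For FOXO3 replicates 2 and 4 were likewise nearest the HDW libraries, whereas replicates 3 and 5 lay below them. Over all 5 the log2 fold change was −0.23 (SE 0.09, adjusted p = 0.0914). Without replicates 2 and 4 it was −0.38 (adjusted p = 0.00105), and it also passed without either of them alone (adjusted p down to 0.0306). The difference in the SESN1 response was 0.18 (SE 0.11, adjusted p = 0.26), and 0.33 without replicates 3 and 5 (adjusted p = 0.00471).

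TXNIP (chr1:145992435-145996579, minus strand) encodes an arrestin-fold protein that binds thioredoxin and curbs glucose uptake, and it had the largest difference between genotypes of the 10 genes. Its normalized read counts were 429, 460.4, 432, 424 and 482 in unwounded WT cells and 419.8, 253, 323, 431 and 405 after HDW. They were 128, 65.9, 70.2, 56.3 and 81.9 in unwounded GCN2KO cells and 38.4, 59.4, 60.4, 60.2 and 102 after HDW. Every GCN2KO library lay below every WT library, from 36 to 113 reads per library before scaling. TXNIP was lower in GCN2KO cells by −2.47 unwounded (SE 0.16, adjusted p = 1.31e-09) and −2.52 after HDW (SE 0.21, adjusted p = 9.69e-08). Its response to HDW was weak: the log2 fold change in WT cells was −0.29 (SE 0.12), with an adjusted p of 0.0496 that rose to as much as 0.121 and missed the threshold in 7 of 10 fits that left out 1 library (any 1 WT unwounded library, or WT HDW replicate 2 or 3), and was 0.183 in the joint fit of all 20 libraries. In GCN2KO cells it was −0.31 (SE 0.25, adjusted p = 0.382), and the difference was −0.04 (SE 0.28, adjusted p = 0.939).

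CCNG2 (chr4:77157207-77433388, plus strand) encodes cyclin G2, an unconventional cyclin whose level rises as cells leave the cycle. It ranged from 3246 to 3661 normalized read counts in unwounded WT cells, 2919.8 to 3300.4 after HDW, and 2184 to 2525 and 2195 to 2340.5 in the GCN2KO groups. The genotypes did not overlap, whereas the wounded and unwounded libraries of each genotype did. CCNG2 fell by 0.14 after HDW in WT cells (SE 0.04, adjusted p = 0.0127), was −0.06 in GCN2KO cells (SE 0.06, adjusted p = 0.447), and was lower in GCN2KO cells by −0.50 unwounded (SE 0.06, adjusted p = 3.03e-06) and −0.44 after HDW (SE 0.04, adjusted p = 3.15e-07).

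BCL6 (chr3:187721377-187745725, minus strand) encodes a zinc finger repressor that FOXO factors induce and that silences growth genes such as those for D-type cyclins. Its normalized read counts were 1351, 1287, 1338, 1419.6 and 1353 in unwounded WT cells and 830.4, 667, 731, 747 and 731 after HDW. In GCN2KO cells they were 974, 814, 622, 689 and 625 unwounded, and 484, 535, 562, 603.5 and 752 after HDW. Unwounded WT cells again stood above the other 3 groups, and 2 unwounded GCN2KO libraries were above most WT HDW libraries. BCL6 fell by 0.87 in WT cells (SE 0.05, adjusted p = 2.50e-09). In GCN2KO cells the BCL6 log2 fold change was −0.33 (SE 0.14, adjusted p = 0.0958). It passed at −0.44 without HDW replicate 5 (adjusted p = 0.0265), at −0.48 without unwounded replicates 3 and 5 (adjusted p = 0.047) and at −0.32 without unwounded replicate 1 and HDW replicate 5 (adjusted p = 0.0468). The responses differed by 0.53 (SE 0.15, adjusted p = 0.0146). That call held in all 20 fits with 1 library left out, with adjusted p-values of 0.0011 to 0.0307, and was lost (0.36, adjusted p = 0.0931) without both GCN2KO unwounded replicates 3 and 5.

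Before any wound, 7 of the 9 tested genes stood lower in GCN2KO than in WT cells, none was higher and 2 (SESN1 and FOXO3) did not pass, where 33.1% of all genes were lower and 33.4% higher. The wider lists did not all share this. Of 38 other reported FOXO targets 17 were lower and 14 higher, with a median of −0.05. Of 8 relatives of the members 1 was lower and 4 higher. The insulin receptor, PI3K and AKT arm had more genes lower too, with 14 of 30 lower and 5 higher. So did the keratinocyte markers, with 8 of 12 lower and 2 higher, whereas FOXO protein regulators had 6 of 30 lower and 11 higher. The keratinocyte markers named above moved in the same libraries, and their part in these differences was not tested. The median log2 fold change of the 9 tested members was −0.50, against 0.0042 for all genes tested. TXNIP, PIK3IP1 and FOXO1 also passed a log2 fold change of 1, as 8.22% of all genes did downwards; FOXO1 was just past it and lay between −1.12 and −0.95 as 1 library at a time was left out. BCL6 was at −0.86 (SE 0.11, adjusted p = 2.73e-06) and SESN3 at −0.37 (SE 0.12, adjusted p = 0.0103). SESN3 missed the threshold at −0.23 without GCN2KO unwounded replicates 3 and 5 (adjusted p = 0.0808), while SESN1 passed there at −0.18 (adjusted p = 0.0308). IRS2 was at −0.29 (SE 0.11, adjusted p = 0.036), and missed the threshold when WT unwounded replicate 1 or 2 or GCN2KO unwounded replicate 1, 3 or 5 was left out (adjusted p of up to 0.108), or 3 and 5 together (adjusted p = 0.225). In 5 of the 9 (TXNIP, PIK3IP1, CCNG2, BCL6 and FOXO1) all GCN2KO libraries were below all WT libraries, as in 27.0% of genes.

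After HDW the picture between genotypes was mixed: 6 of the 9 were lower in GCN2KO cells, FOXO3 and SESN1 were higher and SESN3 did not pass (log2 fold change 0.11, SE 0.14, adjusted p = 0.496), where 35.8% of all genes were lower and 35.9% higher. TXNIP and PIK3IP1 passed a log2 fold change of 1 as well, as 7.83% of all genes did downwards. The libraries did not overlap for 4 of the 9 with GCN2KO below WT (TXNIP, PIK3IP1, CCNG2 and FOXO1, against 29.3% of genes) and for 2 with GCN2KO above (FOXO3 and SESN1, against 27.9%). SESN1 was higher by 0.16 (SE 0.04, adjusted p = 0.00455, and 0.0725 in the joint fit of all 20 libraries) and BCL6 lower by −0.34 (SE 0.10, adjusted p = 0.00694). IRS2 was at −0.20 (SE 0.09, adjusted p = 0.0478), which missed the threshold in 6 of 10 fits with 1 library left out, WT HDW replicate 1, 3 or 4 or GCN2KO HDW replicate 3, 4 or 5 (adjusted p of up to 0.117).

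**Figure D3:**
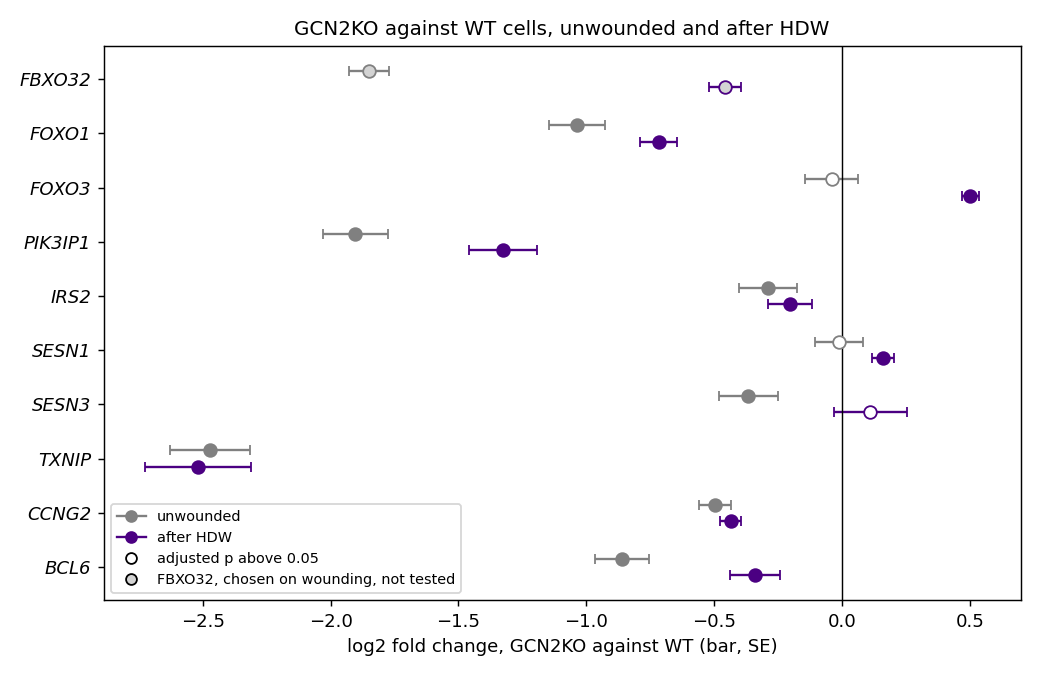
Log2 fold change of GCN2KO against WT cells (horizontal axis; bars are SE) for each gene, in unwounded cells (grey) and after HDW (purple), 5 libraries per group; open points did not pass an adjusted p of 0.05 and the light grey fill marks FBXO32, not tested. TXNIP lies near −2.5 in both states, FBXO32 goes from −1.85 to −0.46, and FOXO3 from −0.04 to 0.50.

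On the RPKM scale, where reads are divided by library size and exon length, which allows levels of different genes to be compared, PIK3IP1 was the most abundant of the 10 in unwounded WT cells at 30.2 ± 1.51 (SD, n = 5), followed by FBXO32 at 23.1 ± 1.41, then FOXO3 at 16.5 ± 0.57 and CCNG2 at 15.9 ± 0.793, whose ranges overlapped. FOXO1 at 9.76 ± 0.335 came next, then SESN1 at 8.33 ± 0.34 and BCL6 at 7.91 ± 0.278, which overlapped, and TXNIP at 4.30 ± 0.24, SESN3 at 4.07 ± 0.202 and IRS2 at 3.74 ± 0.491, which overlapped too. In unwounded GCN2KO cells FOXO3 led at 16.0 ± 2.998 and CCNG2 followed at 11.2 ± 0.616. PIK3IP1 was at 8.05 ± 2.10, FBXO32 at 6.41 ± 0.649, and TXNIP last at 0.777 ± 0.273. After HDW in GCN2KO cells FOXO3 stood at 20.6 ± 0.49, clear of every other member. In WT HDW cells FOXO3 at 14.6 ± 0.257 and CCNG2 at 14.5 ± 0.706 were first and overlapped, with PIK3IP1 at 13.1 ± 1.95 overlapping them. FOXO3 was therefore first or level with the first in 3 of the 4 groups, and behind PIK3IP1 and FBXO32 in unwounded WT cells.

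The spread between libraries was wider in GCN2KO cells for most of these genes and fell on several of them together. The coefficient of variation of the 10 genes had a median of 19.4% in unwounded GCN2KO cells, from 5.47% to 35.2%, against 4.96% in unwounded WT cells, from 3.43% to 13.1%. After HDW the medians were 13.5% in GCN2KO and 6.79% in WT cells. There SESN1 (1.88% against 5.68%) and CCNG2 (2.41% against 4.88%) spread less in GCN2KO cells, and the other members more. GCN2KO unwounded replicate 1 was the highest of its group for TXNIP, SESN3, PIK3IP1, BCL6 and FOXO1. GCN2KO HDW replicate 5 was the highest of its group for the same 5 and for CCNG2 and FOXO3. Over all genes HDW replicate 5 stood apart as well. Unwounded replicate 1 was outside the pairs 2 with 4 and 3 with 5. Its chi-square per degree of freedom with the other libraries was 19.2 to 35.8, below the 41.2 to 49.4 between those pairs.

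**Figure D4:**
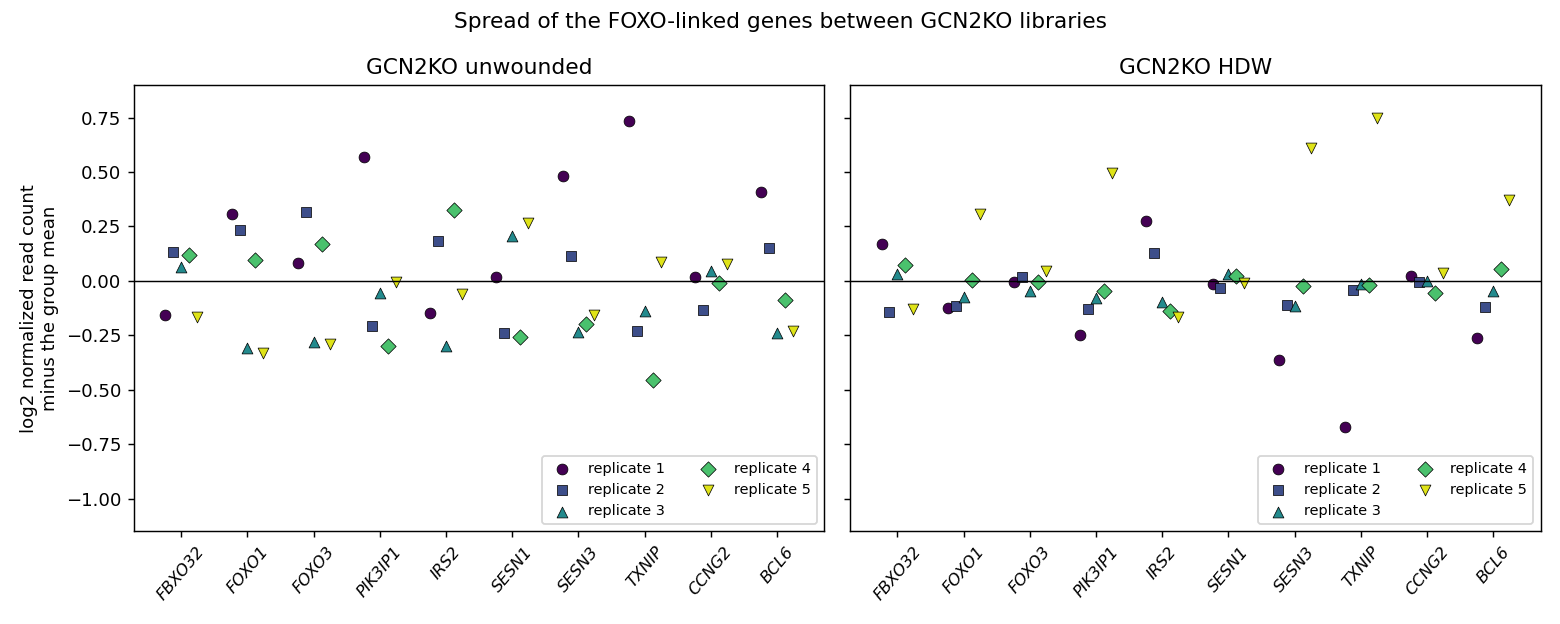
Log2 normalized read count of each gene minus the mean of its group (vertical axis), for the 5 unwounded GCN2KO libraries (left) and the 5 GCN2KO HDW libraries (right); each symbol is a replicate. Replicate 1 on the left and replicate 5 on the right lie above 0 for TXNIP, SESN3, PIK3IP1, BCL6 and FOXO1, and on the left replicates 3 and 5 lie low for FOXO3 and high for SESN1.

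Near relatives of the members did not all follow them. FOXO4, another FOXO factor, fell by 0.38 on the log2 scale after HDW in WT cells (SE 0.06, adjusted p = 3.12e-05), was at 0.07 in GCN2KO cells (SE 0.10, adjusted p = 0.602), and its responses differed by 0.45 (SE 0.11, adjusted p = 0.00491), in the same direction as FOXO3. FOXO6 had at most 16.1 normalized read counts in any library and was not tested. SESN2, the sestrin that ATF4 induces and that senses leucine, rose after HDW in WT cells by 0.74 (SE 0.09, adjusted p = 6.42e-06), opposite to SESN1 and SESN3. It was also higher in unwounded GCN2KO than WT cells by 1.09 (SE 0.08, adjusted p = 6.87e-09), and its response to HDW differed by −0.65 (SE 0.12, adjusted p = 2.22e-04). ARRDC2, an arrestin-domain relative of TXNIP, fell by 0.61 after HDW in WT cells (SE 0.05, adjusted p = 3.36e-08), was lower in unwounded GCN2KO cells by −1.71 (SE 0.09, adjusted p = 1.33e-10) and had a response that differed by 0.71 (SE 0.12, adjusted p = 8.50e-05). ARRDC3 fell by 0.56 in WT cells and fell by 0.57 in GCN2KO cells, and ARRDC4 passed in no comparison. CCNG1, the relative of CCNG2, was higher in GCN2KO cells, by 0.72 unwounded (SE 0.07, adjusted p = 9.03e-08), where CCNG2 was lower. IRS1 was at 0.01 in WT cells after HDW (SE 0.06, adjusted p = 0.898) and rose by 0.51 in GCN2KO cells (SE 0.11, adjusted p = 0.00613). FBXO25, a relative of FBXO32, rose in WT cells by 0.18 (SE 0.04, adjusted p = 0.00225).

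A list of 47 other genes reported as FOXO targets moved downwards more often than upwards in wounded WT cells. It holds genes that FOXO factors repress, such as CCND1, as well as induced ones. FOXO4, IRS1, INSR, RICTOR, CDKN1A and GADD45A are also in other lists here, so the lists are not separate. Of the 38 listed targets that could be tested, 20 fell, 9 rose and 9 did not pass. Their median log2 fold change was −0.17, where 25.2% of all genes fell and 26.1% rose. In GCN2KO cells 11 of 39 fell, 8 rose and 20 did not pass (median −0.07), where 10.8% of all genes fell and 11.9% rose. The difference in response passed upwards for 15 and downwards for 5, where 11.2% of all genes passed upwards and 12.5% downwards. After HDW 14 of 39 were higher and 15 lower in GCN2KO than in WT cells, near the 35.9% and 35.8% of all genes. TNFSF10, which encodes the death ligand TRAIL, fell by 1.16 in WT cells (SE 0.04, adjusted p = 4.73e-11), and KLHL24, which encodes a ubiquitin ligase adaptor that acts on keratin, fell by 1.01 (SE 0.05, adjusted p = 2.54e-10). The response of KLHL24 differed by 0.71 between genotypes (SE 0.09, adjusted p = 2.46e-06), and that of TNFSF10 by 0.26 (SE 0.25, adjusted p = 0.479). DDB1, a ubiquitin ligase adaptor, differed in response by 0.54 (SE 0.08, adjusted p = 3.39e-05). CCND1, the gene of cyclin D1, which FOXO factors repress, rose in WT cells by 1.02 (SE 0.05, adjusted p = 5.46e-10) and TRIB1, a pseudokinase gene, by 0.87 (SE 0.06, adjusted p = 2.01e-08). EIF4EBP1, which encodes a translation repressor that is also an ATF4 target, differed in response by −1.48 (SE 0.13, adjusted p = 4.27e-08), and PMAIP1, a pro-apoptotic gene, by −0.56 (SE 0.12, adjusted p = 9.81e-04).

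Genes of the insulin receptor, PI3K and AKT arm went both ways. Of 30 tested, 12 rose, 8 fell and 10 did not pass after HDW in WT cells, with a median of 0.02, where 26.1% of all genes rose and 25.2% fell. The phosphatase gene INPP4B, which opposes PI3K, rose by 1.08 (SE 0.07, adjusted p = 9.90e-09) and PIK3CB, a catalytic subunit, by 0.39 (SE 0.03, adjusted p = 2.17e-07). PIK3R3, a regulatory subunit, fell by 0.84 (SE 0.06, adjusted p = 9.99e-09), and INPP5D, another phosphatase, by 0.55 (SE 0.05, adjusted p = 1.92e-07). In GCN2KO cells 9 of the 30 rose, 1 fell and 20 did not pass, against 11.9% of all genes rising and 10.8% falling. Between genotypes 14 of the 30 were lower and 5 higher in unwounded GCN2KO cells (33.1% and 33.4% of all genes), and 16 were lower and 7 higher after HDW (35.8% and 35.9%). The difference in response passed upwards for 7 and downwards for 4 (11.2% and 12.5% of all genes), with GAB1, an adaptor, at 0.53 (SE 0.09, adjusted p = 1.78e-04), PIK3R3 at 0.51 (SE 0.10, adjusted p = 4.02e-04), MAPKAP1, a subunit of mTORC2, at −0.30 (SE 0.05, adjusted p = 2.79e-04) and PIK3CB at −0.33 (SE 0.07, adjusted p = 0.00124).

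Genes that act on FOXO proteins, such as kinases, 14-3-3 proteins and deacetylases, also went both ways. Of 30 tested, 11 rose, 7 fell and 12 did not pass in wounded WT cells (median 0.03), where 26.1% of all genes rose and 25.2% fell. SIRT2, a deacetylase, fell by 0.49 (SE 0.04, adjusted p = 2.08e-07) and SFN, the epithelial 14-3-3 sigma, by 0.20 (SE 0.04, adjusted p = 1.75e-04), while YWHAB, another 14-3-3 gene, rose by 0.29 (SE 0.03, adjusted p = 1.58e-06) and PRMT1, an arginine methyltransferase, by 0.22 (SE 0.03, adjusted p = 8.92e-05). In GCN2KO cells 3 of the 30 rose and 6 fell, where 11.9% of all genes rose and 10.8% fell. The difference in response passed upwards for 4 and downwards for 10, against 11.2% and 12.5% of all genes. Between genotypes 11 were higher and 6 lower unwounded (33.4% and 33.1% of all genes). After HDW 14 were higher and 7 lower (35.9% and 35.8%). The difference in response to HDW was 0.30 for SIRT2 (SE 0.07, adjusted p = 0.00298) and for IKBKB, a kinase (SE 0.08, adjusted p = 0.00977). It was −0.37 for CSNK1A1, casein kinase 1 alpha (SE 0.08, adjusted p = 0.00103), and −0.28 for YWHAB (SE 0.06, adjusted p = 0.00167).

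SESN1 is a known p53 target as well as a FOXO target, so 20 p53 target genes, with SESN1 and SESN2 among them, were set beside the FOXO-linked genes. In wounded WT cells 14 fell, 3 rose and 3 did not pass, with a median of −0.25, where 25.2% of all genes fell and 26.1% rose. TP53INP1 fell by 0.66 (SE 0.04, adjusted p = 2.87e-09) and DDB2 by 0.63 (SE 0.04, adjusted p = 3.14e-09), while AEN rose by 0.20 (SE 0.04, adjusted p = 3.70e-04). In GCN2KO cells 3 fell, 2 rose and 15 did not pass, where 10.8% of all genes fell and 11.9% rose. The difference in response passed upwards for 5 genes, against 11.2% of all genes, among them ZMAT3 at 0.69 (SE 0.10, adjusted p = 2.06e-05) and BTG2 at 0.50 (SE 0.07, adjusted p = 2.87e-05), and downwards for 1, SESN2, against 12.5%. Between genotypes 9 were higher and 5 lower in unwounded GCN2KO cells (33.4% and 33.1% of all genes). After HDW 12 were higher and 4 lower (35.9% and 35.8%). The part of p53 in the result for SESN1 was not tested.

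The genes most like FBXO32 across the 20 libraries, of 12303 with a mean of at least 50 normalized read counts, were DRAM1 (Pearson r of 0.98), WLS (0.98) and UBE2G1 (0.97). For TXNIP they were SEC14L2, ELMO3 and QARS1 (0.99 each), for PIK3IP1 they were MPZL2, SPTLC3 and DPYD (0.99 each), and for FOXO1 they were MXRA5, RNF152 and BACE1 (0.99 each). The 20 points share 4 groups, so that these values describe mostly the order of the group means.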

How the data were processed

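RNA was measured in 20 libraries of NTERT cells. The authors trimmed reads with Trimmomatic, aligned them to GRCh38 with STAR and deposited raw counts of uniquely mapped reads per gene from featureCounts; the annotation release and strandedness are not given in the sources used here. Of 57500 Ensembl genes 56410 were matched to symbols. Counts were fitted with edgeR 4.0.16 (R 4.3.3; TMM scaling, filterByExpr with a minimum count of 10 and minimum total of 15, quasi-likelihood test, Benjamini-Hochberg adjustment over all genes tested). A gene passed at an adjusted p of 0.05 or less. Each comparison used its 10 libraries, and the difference in response (the interaction of genotype and HDW) all 20. Groups came from the labels. No library was a duplicate. The script was tested on simulated data. The members and gene lists were chosen with earlier results of these data known, so their counts are no independent support, and no test over a list was made. Named genes were all members, their relatives, and per list the 2 genes with the smallest adjusted p in each direction in WT wounding and in the interaction; the 3 most alike genes were sought for FBXO32 and for members past a log2 fold change of 1. RPKM used the summed exon length. Of the 47 other FOXO targets 1 was not found by symbol. Alternatives were other scalings, DESeq2 1.42.0, no filter, thinned counts, a replicate block, a joint fit and libraries left out. Replicate numbers did not pair the samples.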

Additional observations from a re-analysis of the deposited data

Results flagged for a closer look

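In 5 of the 40 sets of 5 libraries (10 genes in 4 groups), the highest library stood apart from the other 4 by more than Dixon's limit of 0.71 of the range. Chance gives about 1 in 20 for a single set. The 40 sets share the same libraries, so their flags are not separate and cannot be set against that rate. SESN3 was at 1147 normalized read counts in GCN2KO HDW replicate 5, against 584 to 741 in the other 4. PIK3IP1 was at 1276 in GCN2KO unwounded replicate 1, against 698 to 856, and at 794 in GCN2KO HDW replicate 5, against 474 to 545. FOXO1 was at 1027 in GCN2KO HDW replicate 5, against 761 to 834. IRS2 was at 1077 in WT unwounded replicate 1, against 799.0 to 865. Of these 5, 3 were in the same library, GCN2KO HDW replicate 5.

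The response to HDW differed between GCN2KO and WT cells, by the interaction term over all 20 libraries, for FOXO3 (0.55 on the log2 scale), for PIK3IP1 (0.58) and for BCL6 (0.53). No cause was tested.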

How the results depend on the processing

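Of 340 planned values of single genes under another setting, 323 kept their direction and their side of the threshold, 11 lost a call, 5 gained one and 1 turned direction. Genes past an adjusted p of 0.05 and a log2 fold change of 1 numbered 2521 (GCN2KO against WT, unwounded), 2368 (after HDW), 640.0 (HDW in WT), 106 (HDW in GCN2KO) and 547 (interaction). Without the filter on low counts the first 4 were 3920.0, 3681, 998 and 199, and by adjusted p alone the 5 were 10213, 11367, 7878, 3586 and 3926. With 1 library left out they ranged from 2441 to 2811, 2358 to 2627, 650.0 to 693, 99 to 151 and 503 to 588, and HDW in GCN2KO gave 252 without GCN2KO unwounded replicates 2 and 4. Of the 9 tested members those passing ranged from 6 to 7, 7 to 8, 8 to 9, 0 to 5 and 2 to 5. For HDW in GCN2KO they were 5 in the joint fit and 1 without GCN2KO unwounded replicates 3 and 5, against 3. In the joint fit of all 20 libraries FOXO3 and TXNIP no longer passed in wounded WT cells (adjusted p = 0.082 and 0.183). Between genotypes after HDW 6 of the 9 members passed in that fit, against 8, and SESN1 (0.0725) was among those lost. On thinned counts the PIK3IP1 difference in response missed (0.062).

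Directions turned for values near 0: SESN1 unwounded between genotypes was 0.14 without GCN2KO unwounded 2 and 4 and from −0.079 to 0.051 with 1 library out; FOXO3 there was 0.14 without 3 and 5 and from −0.13 to 0.032; SESN3 after HDW between genotypes ranged from −0.081 to 0.20; FOXO1 after HDW in GCN2KO was −0.15 without 3 and 5 and from −0.037 to 0.13; the TXNIP interaction was 0.028 under library-size scaling and from −0.28 to 0.18; the IRS2 interaction was −0.052 without 3 and 5. The alternatives that leave out pairs of libraries were chosen after seeing the data. The causes were not tested.

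With the replicate number as a block the counts of genes were 2546, 2373, 641, 102 and 528. Same-numbered libraries had mean correlations of 0.0386, 0.0304, 0.0221 and −0.159 in the 4 comparisons, and 1, 1, 3 and 0 of 5 numbers correlated best with themselves, so the pairing is only a number. Under the block IRS2 after HDW in GCN2KO had an adjusted p of 0.0519, and the genes passing by adjusted p alone there were 2121 in place of 3586. Depth limits TXNIP most, with 36 to 113 reads in GCN2KO libraries.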
